A study of Mus musculus with 4 samples.

Results

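The MHC class I presentation genes described here are 10 genes of the mouse antigen presentation pathway, taken by name from the 23358 gene rows of each deposited count table: the classical heavy chains H2-K1 and H2-D1, the light chain B2m, the peptide transporter subunits Tap1 and Tap2 with their bridging chaperone Tapbp, the immunoproteasome subunits Psmb8, Psmb9 and Psmb10, and the trimming peptidase Erap1. All 10 had a row in every table and passed the filter on low counts. The study sequenced polyadenylated RNA of 2 clonal mouse lines labelled as progenitors of interstitial cells of Cajal, which pace the contractions of gut muscle, with 2 libraries per line. Line 2xSCS2F10 was derived from gastric tunica muscularis of C57BL/6J mice and was kept at 37 °C in NeuroCult NSCPM, a neural stem cell medium, to which 5% chick embryo extract was added. Line 2xSCS70 was derived from the same layer of H-2Kb-tsA58 mice and was kept in that medium at 39.5 °C with neither the extract, as far as the labels say, nor interferon gamma. In H-2Kb-tsA58 mice the promoter of the class I gene H-2Kb, which responds to interferon, drives an SV40 large T antigen that is unstable at raised temperature. Each line is 1 clone, and line, strain, temperature and extract differ together, so their effects cannot be told apart.

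Class I molecules show peptides from inside the cell to cytotoxic T cells. The proteasome cuts proteins into peptides, the Tap1 and Tap2 transporter carries them into the endoplasmic reticulum, Erap1 trims them, and Tapbp helps to load them onto a heavy chain paired with B2m. Interferon gamma is known to raise most of these genes, the immunoproteasome subunits included, through factors that include Irf1 and the class I transactivator Nlrc5. The H-2Kb promoter of the transgene is that of H2-K1, a member of the set, but reads of the transgene's transcript were not analysed here.

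The libraries held 20159986 to 24485632 fragments in genes, each present as 2 counts in the tables, and 3 fragments corresponded to 0.1088 to 0.1575 CPM (counts relative to library size, scaled between libraries by the TMM method). Whether the libraries of a line came from separate cultures was not stated in the labels, so each p-value covers no more than the spread among these libraries, perhaps technical. Per the column headers, replicate 1 of each line was on lane L1 and replicate 2 on lane L2. Kit, which defines mature interstitial cells of Cajal, had 0 counts in both 2xSCS2F10 libraries and 0 and 2 in those of 2xSCS70. Of the 7 markers of mature cells and progenitors, 6 were tested, with a median log2 change of 0.54. Cd34 and Cd44 rose in 2xSCS70 and Ano1 and Igf1r fell, or 33.3% each way, beside 18.8% and 21.8% of all genes tested. All of these calls but that of Ano1 ended when either 2xSCS70 library was left out. The call of Igf1r also ended in limma on log2(RPKM + 1) values (adjusted p = 0.27). In bulk libraries, fewer cells that express a gene and less RNA per cell cannot be told apart.

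Most of the 10 members were higher in 2xSCS70, with Psmb8, H2-K1 and H2-D1 furthest apart. In edgeR's quasi-likelihood test across all 14496 genes that passed the filter, 7 of the 10 rose (Benjamini-Hochberg adjusted p under 0.05), 0 fell and B2m, Tapbp and Psmb10 did not pass. Over all genes tested, 18.8% passed as higher and 21.8% as lower. The median log2 change of the 10 was 1.82, beside 0.02 over all genes tested. H2-K1, H2-D1, Psmb8 and Tap2 rose by over 4-fold, as did 5.99% of all genes tested. Both 2xSCS70 libraries lay above both 2xSCS2F10 libraries on the CPM scale for 8 of the 10 (39.9% of all genes) and below them for Tapbp (37.5% of all genes), while the libraries overlapped for Psmb10. Without 2xSCS70 replicate 1 the members that rose were H2-K1, H2-D1 and Psmb8, 3 of the 10, when 2.01% of all genes passed as higher. Without its replicate 2 they were these and Tap1, 4 of the 10, against 2.18% of all genes.

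**Figure D1:**
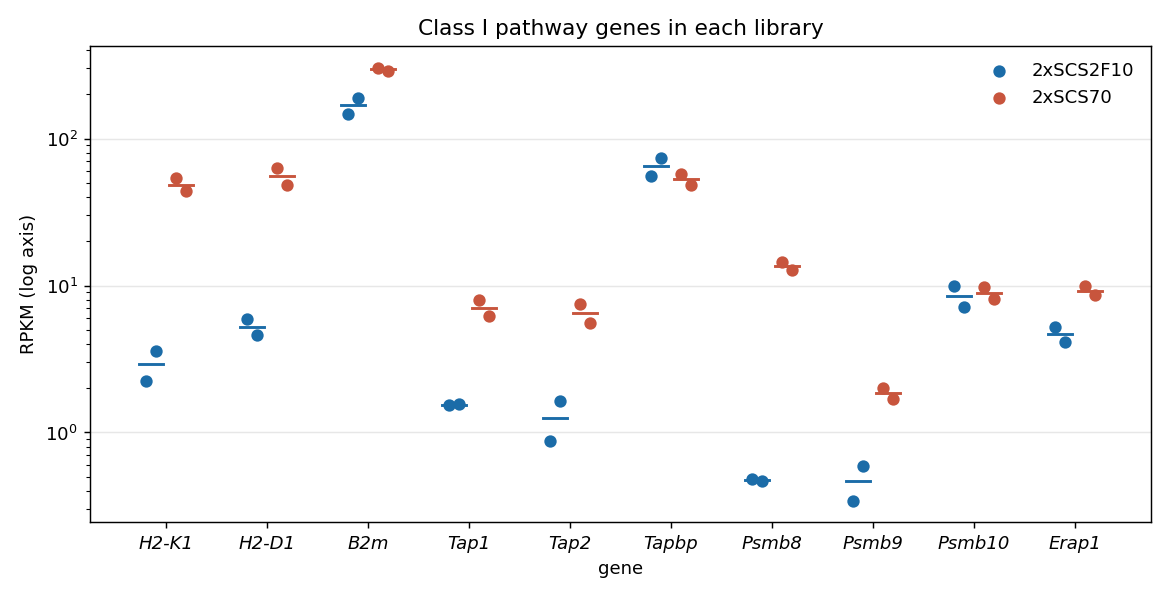
RPKM of the 10 class I pathway genes in each library on a log axis, with 1 point per library (replicate 1 left, replicate 2 right) and a bar at the mean of each line. Psmb8 lies at 0.486 and 0.471 in 2xSCS2F10 and at 14.4 and 12.8 in 2xSCS70, while the points of Tapbp and Psmb10 overlap between the lines.

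Upstream sequence is shown for H2-K1 and H2-D1, the promoter of the transgene and its closest relative among the members, and for B2m, Tap1 and Psmb8, which differed in whether and how far they rose. The 250 bases before the start site are from RefSeq windows on GRCm38.p6, written 5′ to 3′ along the gene, and capitals mark matches to any of 5 motifs on either strand.
H2-K1 (chr17:34000334-34000583, minus strand): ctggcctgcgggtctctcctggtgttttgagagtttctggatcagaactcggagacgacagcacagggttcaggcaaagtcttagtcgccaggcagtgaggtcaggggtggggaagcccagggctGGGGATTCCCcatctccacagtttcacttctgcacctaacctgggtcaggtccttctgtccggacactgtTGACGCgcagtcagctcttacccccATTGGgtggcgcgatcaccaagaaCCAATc
H2-D1 (chr17:35262844-35263093, plus strand): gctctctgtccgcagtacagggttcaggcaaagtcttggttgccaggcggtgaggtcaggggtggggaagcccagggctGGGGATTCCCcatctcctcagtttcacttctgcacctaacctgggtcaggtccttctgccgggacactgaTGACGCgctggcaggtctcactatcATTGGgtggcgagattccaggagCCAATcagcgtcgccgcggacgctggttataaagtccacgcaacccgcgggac
B2m (chr2:122147437-122147686, plus strand): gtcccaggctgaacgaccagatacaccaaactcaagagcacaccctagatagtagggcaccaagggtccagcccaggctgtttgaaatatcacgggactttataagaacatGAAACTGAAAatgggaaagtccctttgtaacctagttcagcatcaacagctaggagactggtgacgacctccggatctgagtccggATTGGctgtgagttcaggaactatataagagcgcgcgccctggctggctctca
Tap1 (chr17:34187306-34187555, plus strand): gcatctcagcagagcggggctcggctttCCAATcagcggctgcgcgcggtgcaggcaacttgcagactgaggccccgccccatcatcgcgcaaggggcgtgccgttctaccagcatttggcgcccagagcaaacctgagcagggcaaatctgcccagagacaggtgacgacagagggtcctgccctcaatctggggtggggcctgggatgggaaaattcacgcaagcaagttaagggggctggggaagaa
Psmb8 (chr17:34197945-34198194, plus strand): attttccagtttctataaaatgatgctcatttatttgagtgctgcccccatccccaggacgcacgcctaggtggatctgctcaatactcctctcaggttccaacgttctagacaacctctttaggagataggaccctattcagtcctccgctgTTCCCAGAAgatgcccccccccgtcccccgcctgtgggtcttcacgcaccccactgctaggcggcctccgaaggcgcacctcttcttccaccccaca

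The motifs searched were the core of an interferon-stimulated response element, the core of a gamma-activated site (TTCNNNGAA), the NF-kB site of the class I enhancer A, the core of site alpha or X2 (TGACGC) and the core of a Y box (CCAAT). They were sought on both strands from 250 bases before to 50 bases after the start site, in 32851 windows, of which they were held by 3.44%, 8.3%, 0.107%, 7.4% and 37.4%. A window was found for 9 of the 10 members, Tap2 being the exception. Positions below are counted from the start site to the leftmost base of the match. The H2-K1 window whose start site is that of its deposited row held the NF-kB site at -125 and TGACGC at -55. It also held a Y box core read on the other strand (ATTGG) at -30 and 1 read on the gene's own strand at -6. A further H2-K1 window, with another start site, held the same 4 at -111, -41, -16 and 9. The H2-D1 window held the same 4 in the same order, at -171, -101, -76 and -53, and the upstream sequences of these genes were identical at 172 of 192 aligned positions (89.6%). The NF-kB site was found in 35 windows in all. Neither the H2-K1 windows nor the H2-D1 window matched the interferon-stimulated response element core. That core was sought as a fixed pattern of letters, so elements that depart from the pattern were missed. The H-2Kb promoter responds to interferon, so the lack of a match here does not show the lack of an element.

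The other windows held fewer of these letters. The B2m window held an interferon-stimulated response element core, GAAACTGAAA, at -139 and ATTGG at -53. Psmb8 held TTCCCAGAA, which matches on both strands, at -97. By their deposited positions, Tap1 and Psmb9 face away from each other with 226 bases between their starts, so the sequence shown for Tap1 is also the region before Psmb9. In the GENCODE M21 annotation, however, Psmb9 reaches into Tap1. The CCAAT at -222 of Tap1 and the ATTGG at -8 of Psmb9 are the same 5 bases of that stretch, counted from either start. The Tapbp window held ATTGG at -248 and -165, that of Erap1 held TTTCACTTTC (an interferon-stimulated response element core on the other strand) at -4, and that of Psmb10 held none of the 5 motifs. The start site of the Erap1 window (74639853) was not that of its deposited row (74639872). These matches are letters in a window, and binding was not measured. A window without a match may still hold a site in other letters.

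H2-K1 encodes the heavy chain of the class I molecule H-2K (chromosome 17, 33996012 to 34000333, mm10, minus strand). It had 186 and 350 counts in replicates 1 and 2 of 2xSCS2F10 and 5540 and 4428 in those of 2xSCS70, or 2.24 and 3.6 RPKM against 53.5 and 43.7. RPKM relates counts to coding length and library size, as deposited. Both 2xSCS70 libraries were far above both of 2xSCS2F10, whose own libraries differed by 0.94 on the log2 scale. The gene rose from 6.98 ± 3.12 to 95.7 ± 6.72 CPM (SD, n = 2 libraries), 13.7-fold (log2 3.78, SE 0.35, edgeR adjusted p = 0.00223). Between libraries of the same number the log2 difference was 4.38 for replicates 1 and 3.30 for replicates 2. In rank by RPKM among all 23358 rows it went from places 9625 and 8074 in 2xSCS2F10 to 995 and 1110 in 2xSCS70.

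H2-D1, the heavy chain of H-2D (chromosome 17, 35263094 to 35267497, plus strand), had 516 and 470 counts in 2xSCS2F10 and 6842 and 5196 in 2xSCS70. Its levels were 5.89 and 4.59 RPKM against 62.6 and 48.6, with no overlap and little spread within 2xSCS2F10. H2-D1 rose 9.02-fold, from 12.8 ± 0.65 to 115 ± 12.3 CPM (log2 3.17, SE 0.15, edgeR adjusted p = 0.000506). The level of H2-K1 as a share of that of H2-D1, on RPKM, was 38% and 78.5% in 2xSCS2F10 and 85.4% and 89.9% in 2xSCS70. This ratio spread most in 2xSCS2F10, where H2-K1 but not H2-D1 was higher in replicate 2. Of the 50-base windows of their annotated transcripts, 8.79% for H2-K1 and 14.3% for H2-D1 also occurred in transcripts of other genes, mostly class I genes, so part of their reads could not be assigned with certainty. The reference is the C57BL/6J sequence of these variable genes, and the H2 haplotype of 2xSCS70 was not given in the sources used here.

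B2m, the invariant light chain that every class I heavy chain pairs with (chromosome 2, 122147687 to 122153082), had the highest RPKM of the set in every library. It had 6382 and 9630 counts in 2xSCS2F10 and 16398 and 15206 in 2xSCS70, or 147 and 190 RPKM against 304 and 288. The libraries did not overlap, but those of 2xSCS2F10 differed by 0.62 on the log2 scale, more than the lines' mean difference. B2m was at 164 and 253 CPM in 2xSCS2F10 and 297 and 312 in 2xSCS70 and did not pass (log2 0.55, SE 0.23, edgeR adjusted p = 0.111). It did pass as higher in limma on log2(RPKM + 1) values (log2 0.82, adjusted p = 0.0465). The log2 change of B2m was 0.26 with replicate 1 of 2xSCS2F10 left out and 0.89 with replicate 2 of that line left out. B2m exceeded the 2 heavy chains together 18.1- and 23.2-fold on RPKM in 2xSCS2F10 and 2.62- and 3.12-fold in 2xSCS70. The mean of this ratio was thus 7.21-fold lower in 2xSCS70, a value without a test, since 2 libraries against 2 allow no exact two-sided permutation p below 0.333.

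Tap1 and Tap2 form the transporter that pumps peptides into the endoplasmic reticulum. Tap1 (chromosome 17, 34187556 to 34197225) had 230 and 272 counts in 2xSCS2F10 and 1474 and 1128 in 2xSCS70, or 1.54 and 1.56 RPKM against 7.94 and 6.21. Tap2 (34204479 to 34216321) had 110 and 240 counts against 1166 and 856, or 0.875 and 1.63 RPKM against 7.44 and 5.58. Both genes were low in both 2xSCS2F10 libraries and higher in both of 2xSCS70, with Tap2 spread by 1.14 on the log2 scale within 2xSCS2F10. Tap1 rose 3.83-fold, from 6.52 ± 0.87 to 25 ± 2.52 CPM (log2 1.94, SE 0.18, edgeR adjusted p = 0.00242). Tap2 rose 4.25-fold, from 4.56 ± 2.46 to 19.4 ± 2.52 CPM (log2 2.09, SE 0.41, edgeR adjusted p = 0.0157). The ratio of Tap1 to Tap2 on RPKM overlapped between the lines, at 1.76 and 0.957 in 2xSCS2F10 and 1.07 and 1.11 in 2xSCS70. The call of Tap1 ended without 2xSCS70 replicate 1 (adjusted p = 0.0557), that of Tap2 ended without replicate 1 or 2 of 2xSCS70 (0.123 and 0.101), and the log2 change of Tap2 was 2.77 without 2xSCS2F10 replicate 2. Windows shared with other annotated genes made up 6.47% for Tap1, mostly Psmb9, and 12.6% for Tap2, mostly Gm15821.

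Tapbp, or tapasin, which bridges the transporter and the heavy chain (chromosome 17, 33919478 to 33929290), had a level of the same order in both lines. It had 7704 and 12070 counts in 2xSCS2F10 and 9974 and 8212 in 2xSCS70, or 55.5 and 74.3 RPKM against 57.6 and 48.5. RPKM overlapped between the lines, and on CPM the values of 257 ± 84.1 and 175 ± 8.61 did not overlap but did not pass (log2 -0.56, SE 0.24, edgeR adjusted p = 0.124). The log2 change of Tapbp was -0.87 without 2xSCS2F10 replicate 1 and -0.18 without replicate 2. On RPKM, in 2xSCS2F10 Tapbp was above both heavy chains, and in 2xSCS70 it lay close to them. Of its transcript windows, 21% were shared, mostly with the overlapping Gm19412.

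Psmb8, Psmb9 and Psmb10 replace the standard catalytic subunits Psmb5, Psmb6 and Psmb7 when an immunoproteasome is built. Psmb8 (chromosome 17, 34198195 to 34201454) had 30 and 34 counts in 2xSCS2F10 and 1106 and 962 in 2xSCS70, or 0.486 and 0.471 RPKM against 14.4 and 12.8. The 2 libraries of each line were close, and no other member differed as much between the lines. Psmb8 rose 23.9-fold, from 0.831 ± 0.086 to 19.9 ± 0.208 CPM (log2 4.58, SE 0.21, edgeR adjusted p = 0.00049). Its change was larger than that of 98% of all genes tested, beside 97.3% for H2-K1 and 96.6% for H2-D1.

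Psmb9 (34182099 to 34187330, minus strand) was low in both lines. It had 14 and 28 counts in 2xSCS2F10 and 102 and 84 in 2xSCS70, or 0.344 and 0.588 RPKM against 2.01 and 1.69. The gene rose 3.26-fold, from 0.547 ± 0.265 to 1.79 ± 0.0878 CPM (log2 1.71, SE 0.44, edgeR adjusted p = 0.0331). The lines did not overlap, but 2xSCS2F10 replicate 2 had 0.95 more than replicate 1 on the log2 scale, and the change was 2.30 without that replicate 2. The call ended without 2xSCS70 replicate 1 (adjusted p = 0.197) or 2 (0.181). Of its windows, 12.5% also occurred in other transcripts, mostly of Tap1.

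Psmb10, the only immunoproteasome subunit outside chromosome 17 (chromosome 8, 105935728 to 105938392), overlapped between the lines. It had 642 and 532 counts in 2xSCS2F10 and 780 and 632 in 2xSCS70, at 15.2 ± 1.79 and 13.6 ± 0.822 CPM (log2 -0.17, SE 0.17, edgeR adjusted p = 0.458). The sign of this difference turned on log2(RPKM + 1) values (0.07, adjusted p = 0.839).

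Set against the standard subunit that each replaces, the 3 immunoproteasome subunits differed in their shares. The RPKM of Psmb8 was 0.55% and 0.739% of that of Psmb5 in 2xSCS2F10 and 16.9% and 18.6% in 2xSCS70, a 27.6-fold difference of means. Psmb9 was at 0.48% and 1.14% of Psmb6 in 2xSCS2F10 and at 1.98% and 1.86% in 2xSCS70, and Psmb10 at 6.87% and 7.35% of Psmb7 against 8.12% and 7.62%. In 2xSCS2F10 the Psmb10 share was the highest of the 3, and in 2xSCS70 the Psmb8 share was. The 3 standard subunits themselves did not pass, with a median log2 change of -0.21 (edgeR adjusted p = 0.259 for Psmb5, 0.0537 for Psmb6 and 0.149 for Psmb7). Psmb6 passed as higher with upper quartile scaling (edgeR adjusted p = 0.0359) and in DESeq2 (0.0462). Without replicate 1 or 2 of 2xSCS2F10 the log2 change of Psmb6 was 0.52 and 0.31, that of Psmb5 -0.12 and -0.32 and that of Psmb7 -0.15 and -0.48.

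**Figure D2:**
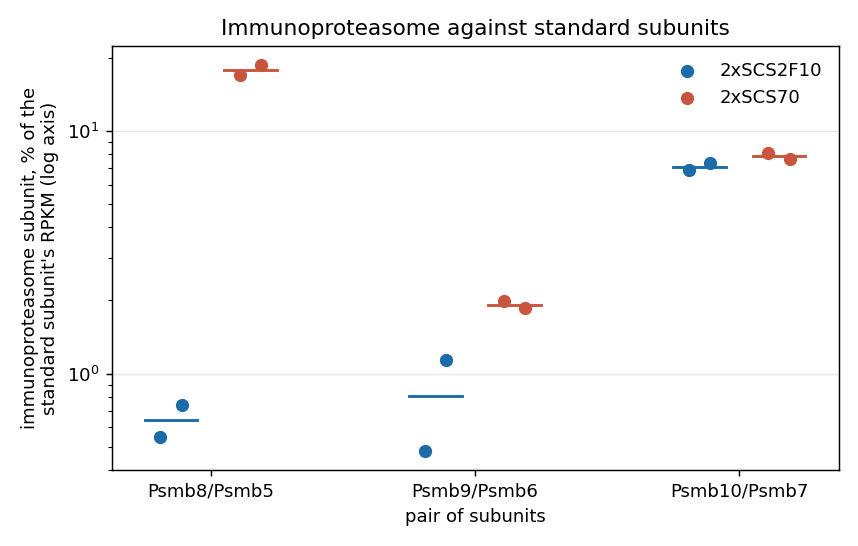
RPKM of each immunoproteasome subunit as a percentage of the standard subunit it replaces, on a log axis, with 1 point per library (replicate 1 left, replicate 2 right) and a bar at the mean of each line. The Psmb8 to Psmb5 share lies at 0.55% and 0.739% in 2xSCS2F10 and at 16.9% and 18.6% in 2xSCS70, and the Psmb10 to Psmb7 share lies between 6.87% and 8.12% in all 4 libraries.

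Erap1, the aminopeptidase of the endoplasmic reticulum that shortens peptides to the length class I molecules hold (chromosome 13, 74639872 to 74691875), had 1066 and 974 counts in 2xSCS2F10 and 2488 and 2124 in 2xSCS70. Its levels were 5.26 and 4.11 RPKM against 9.85 and 8.6, without overlap. Erap1 rose 1.68-fold, from 26.5 ± 1.29 to 44.4 ± 1.05 CPM (log2 0.75, SE 0.12, edgeR adjusted p = 0.0102). This was the smallest of the 7 changes that passed, and the differences within replicate numbers were alike (0.72 and 0.77). The call ended without 2xSCS70 replicate 1 (adjusted p = 0.14) or 2 (0.126). Of its transcript windows, 14% were shared, mostly with Cast.

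**Figure D3:**
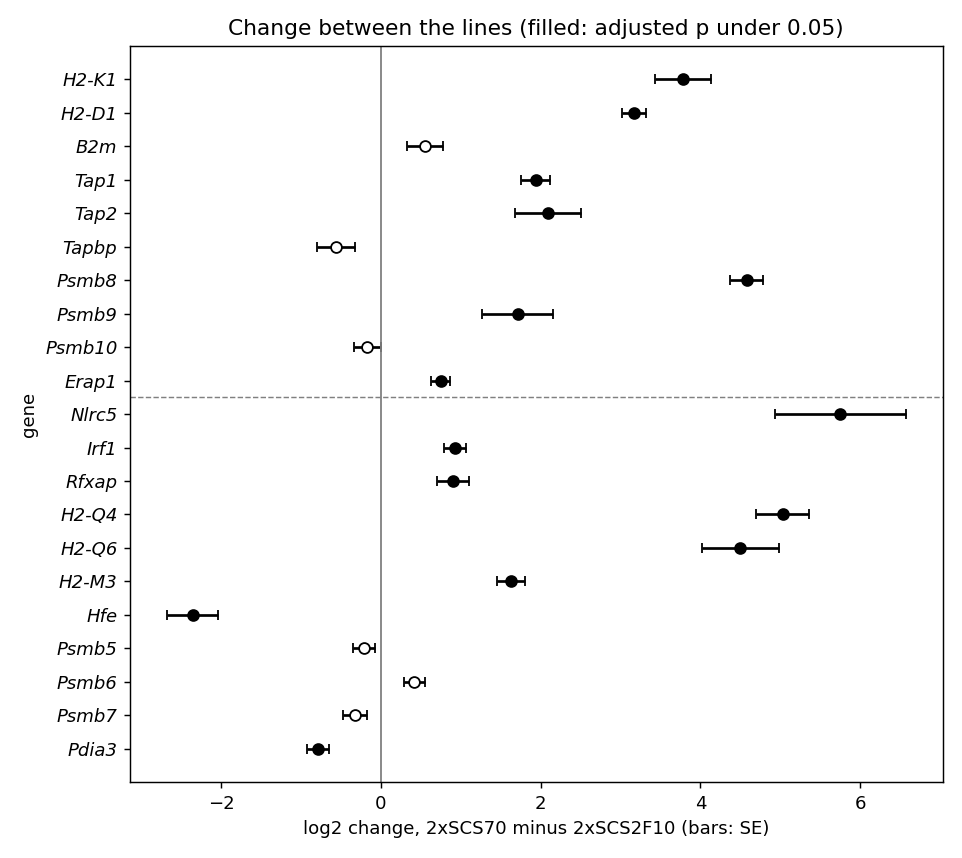
Log2 change between the lines (2xSCS70 minus 2xSCS2F10) with its SE for the 10 members above the dashed line and 11 other genes of the pathway below it, filled where the edgeR adjusted p is under 0.05. Psmb8 at 4.58, H2-K1 at 3.78 and H2-D1 at 3.17 lie furthest right among the members, and B2m, Tapbp and Psmb10 are open circles.

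Other class I and class I-like heavy chains that passed were mostly higher in 2xSCS70. Of 28 with a row 14 were tested, of which 6 rose (42.9%), 1 fell (7.14%) and 7 did not pass, with a median log2 change of 0.46. Over all genes tested, 18.8% rose and 21.8% fell. H2-Q4, a Qa region class I gene, had 24 and 44 counts in 2xSCS2F10 and 1720 and 1310 in 2xSCS70 and rose 32.8-fold (log2 5.03, SE 0.33, edgeR adjusted p = 0.00103). H2-Q6 had 1 fragment in each 2xSCS2F10 library and was higher by a ratio of 23.8 with an exact 95% interval of 6.31 to 200 that covers counting error only (edgeR adjusted p = 0.00328). H2-M3, which presents formylated peptides, had 156 and 150 counts against 656 and 616 and rose 3.09-fold (edgeR adjusted p = 0.00378). H2-K2, H2-Q8 and H2-T10 also rose. H2-K2, with 3 fragments in 2xSCS2F10, differed by a ratio of 18.8 (its interval being 6.2 to 93.2), H2-Q8 (2 fragments) by 43.4 (11.8 to 363) and H2-T10 2.44-fold. Hfe, a class I-like protein of iron uptake, fell 5.12-fold (104 and 132 counts against 34 and 28, edgeR adjusted p = 0.00599). Shared transcript windows made up 39.2% for H2-Q4, 35% for H2-Q6, 0.576% for H2-M3 and 42.9% for H2-T10, there mostly with H2-T22. How reads were divided among the Q genes, and between H2-T10 and H2-T22, is thus uncertain. H2-T22 was lower in 2xSCS70 but did not pass (log2 -0.82, edgeR adjusted p = 0.0566). The calls of H2-M3, Hfe, H2-Q8 and H2-T10 ended when either 2xSCS70 library was left out (adjusted p 0.0701 to 0.158), and those of H2-Q6 (0.0523) and H2-K2 (0.0728) without replicate 1. The log2 change of H2-Q8 was 9.73 without 2xSCS2F10 replicate 1 and 4.42 without replicate 2.

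In 4 lists of the wider machinery of peptide supply and loading, genes passed in both directions. The shares that rose were 0%, 9.09%, 20% and 14.3% in the order below, beside 18.8% over all genes tested. The shares that fell were 25%, 9.09%, 0% and 14.3%, beside 21.8%. Of 4 loading chaperones, Pdia3, the disulfide isomerase of the loading complex, fell 1.72-fold (edgeR adjusted p = 0.013), and Calr, Canx and Tapbpl did not pass. Calr passed as lower in DESeq2 (adjusted p = 0.0298). Its log2 change was -0.95 and -0.32 without 2xSCS2F10 replicate 1 or 2, and that of Tapbpl was -0.61 and -0.06. Among 11 other subunits of the 20S core, Psma6 rose 1.34-fold (edgeR adjusted p = 0.0413) and Psma7 fell 1.43-fold (0.0197). Of 5 proteasome activators and assembly factors, Psme4 rose 1.42-fold (edgeR adjusted p = 0.0194). The interferon-responsive activators Psme1 and Psme2 did not pass, at 52.4 and 48.1 CPM in 2xSCS2F10 against 45.0 and 44.9 in 2xSCS70 for Psme1 and at 74.8 and 69.0 against 62.2 and 59.4 for Psme2. The log2 change of Psme2 was -0.20 without 2xSCS2F10 replicate 1 and -0.30 without replicate 2. Of 7 other peptidases, Tpp2 rose 1.38-fold (edgeR adjusted p = 0.0264) and Npepps fell 1.35-fold (0.0432). Median log2 changes of these 4 lists were -0.51, -0.18, -0.05 and 0.11, and all 6 calls ended when either 2xSCS70 library was left out. The calls of Psma6, Tpp2 and Npepps also ended in the fit with a replicate block (adjusted p = 0.0785, 0.0594 and 0.0701), and on log2(RPKM + 1) values those of Pdia3 (0.12), Psma7 (0.311), Psma6 (0.054) and Npepps (0.381) did. With no filter the calls of Psma6 (edgeR adjusted p = 0.0556) and Npepps (0.0582) ended, and with upper quartile scaling that of Npepps did (0.0735).

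Among 12 transcription factors known to act on class I genes, Nlrc5, Irf1 and Rfxap rose (25%) and 0 fell, with a median log2 change of 0.28. The shares over all genes tested were 18.8% higher and 21.8% lower, so the share that rose was near that of all genes. Nlrc5, the class I transactivator, had 2 and 28 counts in 2xSCS2F10 and 1104 and 1090 in 2xSCS70, or 0.0514 and 0.735 CPM against 20 and 22.4. It rose 53.9-fold (log2 5.75, SE 0.82, edgeR adjusted p = 0.00697). The size rests on the low 2xSCS2F10 counts, and was 4.83 on the log2 scale without replicate 1 of that line and 8.62 without replicate 2. Irf1, an interferon-responsive activator, rose 1.91-fold (22.1 and 19.7 CPM against 42.0 and 37.9, edgeR adjusted p = 0.00783), and Rfxap, a subunit of the RFX complex, rose 1.87-fold (0.022). The calls of Nlrc5, Irf1 and Rfxap ended when either 2xSCS70 library was left out (adjusted p 0.0744 to 0.195).

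Genes of the interferon gamma axis passed in both directions. Ifng itself had 0 counts in all 4 libraries. Of 6 tested genes of this list, the receptor chain Ifngr1 rose 1.58-fold (edgeR adjusted p = 0.016) and Irf1 rose, while the receptor chain Ifngr2 fell 1.68-fold (0.0092) and the kinase Jak2 fell 2.4-fold (0.0143). The shares of this list that rose and fell were 33.3% each, beside 18.8% and 21.8% of all genes tested. Its median log2 change was 0.09. The calls of Ifngr1, Ifngr2 and Jak2 ended when either 2xSCS70 library was left out (adjusted p 0.122 to 0.189), and that of Ifngr2 on log2(RPKM + 1) values (0.107).

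Markers of other cell types that carry class I or class II molecules were low in both lines. Of 11 leukocyte markers 5 were tested, with a median log2 change of 1.03, and Lyz2 (6 and 6 counts against 72 and 108, 11.1-fold, edgeR adjusted p = 0.00661) and Cd68 (2.08-fold, 0.0407) rose in 2xSCS70. Csf1r was lower there but did not pass (74 and 130 counts against 54 and 62, log2 -1.24, edgeR adjusted p = 0.0626). Cd14 (log2 0.11) and Fcer1g (log2 1.03) did not pass either. The leukocyte antigen Ptprc had 6 counts in 2xSCS2F10 replicate 1 and 0 in the other libraries, Tyrobp had 0 in all, and 4 of the 11 were at or below 3 fragments in each library. The summed level of the list was 6.935 and 10.13 CPM in 2xSCS2F10 and 11.21 and 11.55 in 2xSCS70. In 2xSCS2F10 the mean levels of Psmb9 (0.547 CPM), Psmb8 (0.831), Tap2 (4.56) and Tap1 (6.52) were below both of these sums and that of H2-K1 (6.98) lay between them, while in 2xSCS70 these genes other than Psmb9 were above them. Of 7 endothelial markers 3 were tested, with a median log2 change of -0.84, of which Tek fell and Cdh5 (0 counts in 2xSCS2F10, 20 and 28 in 2xSCS70) rose, and the list summed to 5.86 and 9.39 against 4.9 and 4.19 CPM. Of 10 class II genes 5 were tested, with a median log2 change of 0.53, and Cd74 rose 2.22-fold (edgeR adjusted p = 0.0258). H2-Eb1 fell, from 118 and 350 counts to 2 and 2 (a ratio of 158 with an exact 95% interval of 43.2 to 1309 for counting error only, edgeR adjusted p = 0.00427), and its log2 change was -7.81 without 2xSCS2F10 replicate 1 and -6.21 without replicate 2. The shares that rose in the leukocyte, endothelial and class II lists were 40%, 33.3% and 20%, beside 18.8% of all genes tested. Those that fell were 0%, 33.3% and 20%, beside 21.8%. The part of these cell types in the class I differences was not tested. The calls of Cd68, Tek, Cdh5, Cd74 and H2-Eb1 ended when either 2xSCS70 library was left out, that of Lyz2 without replicate 2 (adjusted p = 0.0701), and those of Cd68 and Cd74 also with the replicate block (0.058 and 0.0505).

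Genes whose profile over the 4 libraries came nearest to that of H2-K1 were not members. By Euclidean distance between centred log2 CPM profiles (4 libraries), the 5 nearest were Oasl2 (0.134), Il34 (0.153), Prss50 (0.165), Parp14 (0.186) and Apol9b (0.216). Oasl2, an oligoadenylate synthetase-like gene, was 13.5-fold higher in 2xSCS70, and Parp14, an ADP-ribosyltransferase, 16-fold. Prss50, with 1 fragment in 2xSCS2F10, differed by a ratio of 32.7 (exact 95% interval 5.56 to 1319) and Apol9b (3 fragments) by 20.8 (6.87 to 103). The nearness to H2-K1 by which these genes were chosen sets the size of their difference, so no test is given. Among the members Psmb8 was nearest to H2-K1, at a distance of 0.854 with 132 other genes closer, and H2-D1 followed at 1 with 176 closer. Tap2 lay at 1.67, Tap1 at 1.97, Psmb9 at 2.14, Erap1 at 3.18, B2m at 3.27, Psmb10 at 4.09 and Tapbp at 4.36. With 4 libraries in 2 lines this distance takes in both the size of the difference between the lines and the spread within each line.

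Most of the members lie together in the genome, which the rule that chose them did not use. Of the 10 genes 7 lie in the H2 complex on chromosome 17, between 33919478 and 35267497 (mm10), and 6 of these 7 rose, with a median log2 change of 2.09. The 3 elsewhere are B2m, Psmb10 and Erap1, of which Erap1 rose. Psmb9, Tap1, Psmb8 and Tap2 form 1 block of 34.2 kb, and all 4 rose. Of 82 rows in the chromosome 17 interval that are in none of the lists, 60 were tested, of which 4 rose (6.67%) and 15 fell (25%), with a median log2 change of -0.20. Shares over all genes tested were 18.8% higher and 21.8% lower, so the share that fell was near that of all genes. Cfb, complement factor B, rose 2.56-fold (94 and 96 counts against 316 and 336, edgeR adjusted p = 0.0114), and the collagen gene Col11a2 rose 2.53-fold (0.0144). BC051142 fell 23-fold (132 and 144 counts against 10 and 6, edgeR adjusted p = 0.00169), and Tnxb, a tenascin gene, fell 4.58-fold (0.00398). The calls of Cfb, Col11a2 and Tnxb ended when either 2xSCS70 library was left out (adjusted p 0.0684 to 0.162).

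**Figure D4:**
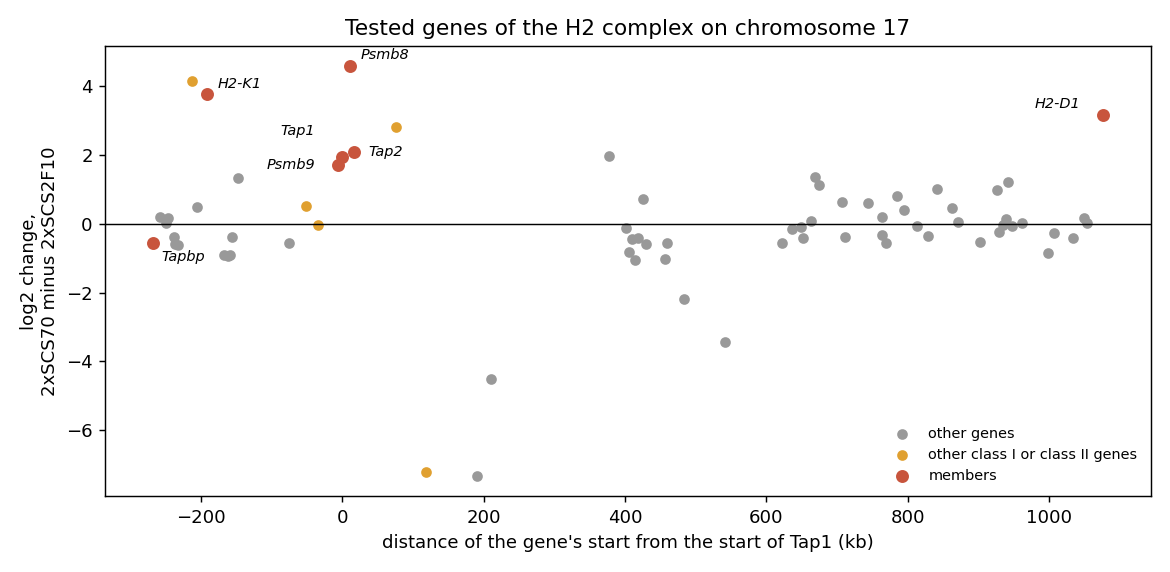
Log2 change (2xSCS70 minus 2xSCS2F10) of the 72 tested genes of the chromosome 17 interval against the distance of their start from that of Tap1 in kb, with members in red, other listed class I or class II genes in orange and other genes in grey. The members other than Tapbp lie above 0. Of the 60 tested genes in none of the lists, 15 passed as lower (25%, beside 21.8% of all genes tested).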

How the data were processed

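Polyadenylated RNA of 2 mouse lines was sequenced, with 2 libraries per line. Per the submitters' processing notes, TopHat2 2.0.6, Bowtie and HTSeq were among the tools that made the counts, on build mm10. The gene annotation was not given in the sources used here, and the TruSeq kit named in the labels does not mark strand. Reads from stretches where genes of the annotation used overlap on opposite strands could thus not be told apart by strand and may have been assigned to neither. By the GENCODE M21 annotation B2m overlaps Patl2, Tap1 overlaps Psmb9, and Psmb8 and Tap2 overlap Gm20496. Tap2 also overlaps Gm15821, Tapbp overlaps Gm19412 and Psmb10 overlaps Gm16156. Whether these overlaps were in the annotation used for counting is not known, and by the deposited positions Tap1 and Psmb9 do not overlap. The authors deposited raw counts per gene, all of them even, so 1 fragment was taken as 2 counts. The authors also deposited RPKM, per the file headers, that is, counts per coding length and per number of reads of the library (50468212 to 62928743). In each table of a replicate 1 library, dates stood for 25 gene names, which were restored from the table of replicate 2.

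Libraries were grouped by line from the labels. Counts as deposited were tested with edgeR 4.0.16 in R 4.3.3 (quasi-likelihood test, TMM scaling, filterByExpr, Benjamini-Hochberg threshold 0.05 over all 14496 genes tested, 8862 untested). Changes are 2xSCS70 minus 2xSCS2F10, with a prior count of 2 for log2 CPM, and SE is the absolute log2 change divided by the square root of F. The common biological coefficient of variation was 20.4%. Tested genes at 1 to 3 fragments in either line are given as a ratio and its exact 95% interval. Alternatives were upper quartile or RLE scaling, the replicate block, counts divided by 2, no filter, each library left out, DESeq2 1.42.0, and limma 3.58.1 on log2(RPKM + 1) and log2(RPKM + 0.1). With 1 library left out, its partner was assumed to vary like the other line, so the spread between the libraries of the reduced line was not counted. Python 3.11.15 was used with pandas 2.3.3, numpy 2.4.6, matplotlib 3.10.9 and scipy 1.17.1.

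The members and the 12 other lists (118 symbols, 111 with a row) were chosen with earlier results of these data known, and 1 gene of these lists was left out and is not reported here. Named were all members, up to 4 called genes per list by adjusted p, a few genes whatever their values, the 5 genes nearest to H2-K1, and the 2 called genes with the smallest adjusted p each way in the chromosome 17 interval and in no list. H2-K2, H2-Q8, H2-T10, H2-T22, Calr, Canx, Tapbpl, Psme1, Psme2, Ptprc, Tyrobp, Csf1r, Cd14 and Fcer1g fall outside that rule and were named after their values were seen. Promoter windows came from RefSeq on GRCm38.p6, and shared 50-base windows from the GENCODE M21 annotation of GRCm38.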

Additional observations from a re-analysis of the deposited data

How the results depend on the processing

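The number of genes passing depended most on which library was left out. It was 5888 with all 4 libraries and 850 to 9567 with 1 left out, lowest without 2xSCS70 replicate 1 (for higher calls 2727 and 291 to 4772, for lower calls 3161 and 559 to 4795). Of the 10 members, 7 passed, all as higher, with all libraries. With 1 library left out 3 to 9 passed, 3 to 8 as higher and 0 to 1 as lower, the lower call being Tapbp without 2xSCS2F10 replicate 1. The other lists together had 29 calls, and 3 to 51 with 1 library left out. No change of sign or call was seen for the 10 members with the replicate block, RLE or upper quartile scaling, no filter, counts divided by 2 or DESeq2. Lower calls over all genes numbered 1828 on log2(RPKM + 1) and 1964 on log2(RPKM + 0.1), beside 3218 and 3377 higher calls. The median change of all genes was 0.11 with upper quartile scaling and 0.15 and 0.25 on these RPKM values. On them 4 of the genes given a value under each alternative changed sign, namely Psmb10 (0.07 and 0.07), Psmb5 (0.03 and 0.03), Canx (0.12 and 0.12) and Psme1 (0.07 and 0.08). The cause was not tested. With the replicate block 5222 genes passed, 2381 of them higher and 2841 lower, and 24 of the other lists. Libraries of the same number did not deviate together (correlation of deviations 0.0539 over 14496 genes), so the numbers were not taken as pairs. Low depth limits Psmb9, Psmb8 and Nlrc5 in 2xSCS2F10, whose fold depends on a few fragments. On log2(RPKM + 1) values the pseudocount lowered the changes of low genes, to 3.30 for Psmb8, 0.96 for Psmb9 and 1.77 for Nlrc5.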
